A study of Mus musculus with 3 samples.

Results

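The vascular endothelial growth factors (VEGFs), their receptors and the angiopoietin receptor Tek were followed in mouse embryos at E15.5, in skeletal mesenchyme that the series calls calvarial. The 10 genes were taken by name from a list of VEGF and Tie pathway genes, and all 10 were found among the 43280 gene symbols of the count tables. They were the ligands Vegfa, Vegfb, Vegfc and Pgf, the receptors Kdr, Flt1 and Flt4, the co-receptors Nrp1 and Nrp2, and Tek. No angiopoietin was among the 10, so Angpt1 and Angpt2 are given with the other genes of the pathway. RNA came from primary cells, with 1 library for each of 3 genotypes at Ctnnb1, the gene for beta-catenin. Embryos of the cKO genotype carried fx/fx floxed alleles and Dermo1-Cre, which is expressed from the Twist2 gene and acts in mesenchyme. The dTF-cKO genotype paired fx with an allele called dm, again with Dermo1-Cre. What dm stands for is not defined by the labels, and the name dTF refers in the field to beta-catenin that keeps its role in adhesion without activating transcription. The control genotype was fx/fx without Cre. Every genotype therefore carried at least 1 floxed allele, and fx/dm RNA without Cre was not analysed here.

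VEGF ligands are secreted dimers that act on receptor tyrosine kinases of endothelial cells. Vegfa signals for vessel growth through Kdr, while Flt1 binds Vegfa tightly and, with a weak kinase and a soluble form, limits what reaches Kdr. Vegfb and Pgf bind Flt1, and Vegfc acts on Flt4 in lymphatic vessels. Neuropilins hold VEGFs beside the receptors and also bind class 3 semaphorins in neurons, mesenchyme and vessels. Tek, also called Tie2, is the receptor for angiopoietins that steadies vessel walls. In forming bone, Vegfa made by chondrocytes and osteoblasts draws in vessels.

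The libraries held 2678457 counts for the cKO, 2905264 for the dTF-cKO and 3634819 for the control. Levels are given as CPM, counts scaled to library size with TMM factors. A gene with no count could still have up to 3, which equalled 1.06 CPM in the cKO, 1.07 CPM in the dTF-cKO and 0.839 CPM in the control. Each genotype is a single library, so differences have no replicate check and were not tested. Intervals in brackets are exact 95% intervals that cover counting error only, and a gene is called higher or lower when its log2 difference is at least 1 in size, a 2-fold difference. Ctnnb1, the targeted gene, stood at 745 CPM in the cKO, 442 CPM in the dTF-cKO and 1026 CPM in the control. The libraries also differed in cell content and in sex-linked transcripts. A list of 16 epidermal genes summed to 23906 CPM in the cKO, 15207 CPM in the dTF-cKO and 166 CPM in the control, where Ivl and Dsg3 were at 0. A list of 14 osteoblast genes summed to 39505 CPM in the cKO, 8330.1 CPM in the dTF-cKO and 186116 CPM in the control, with none at 0. Xist had 0 counts in the cKO, 2 in the dTF-cKO and 1233 in the control, and 4 Y-linked genes had 362, 444 and 0 counts in that order, so genotype and sex-linked expression cannot be told apart.

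All 10 VEGF and Tie genes passed the expression floor of 5 CPM on average, as did 12127 genes in all. In the cKO against the control, Vegfc was higher and Nrp2 lower, and the other 8 were under 2-fold. Over all 12127 genes, 9.66% were higher and 6.78% lower in that comparison, so a single gene of 10 each way is near the background. In the dTF-cKO against the control, Vegfa was higher, and Kdr, Flt4, Nrp1, Nrp2 and Tek were lower. There the background was 19.5% higher and 20.9% lower, against 1 and 5 of the 10. In the dTF-cKO against the cKO, Vegfa was again higher and the same 5 genes and Vegfc were lower, 6 of 10 beside a background of 20.5% lower and 14.5% higher. The median log2 difference of the 10 genes was 0.22, -1.15 and -1.9 in these comparisons, beside 0.06, 0.06 and 0.01 over all genes measured. Counts in the dTF-cKO depended on scaling: with the median set to 0 for 23 endothelial genes (the endothelial scaling), or for 55 genes of the endothelial, pericyte and dermal lists together (the stromal scaling), 5 were higher and 3 lower against the control, and 4 higher and 2 lower against the cKO. The median log2 difference of all genes measured was then 1.89 against the control under both. Against the cKO it was 1.93 under the endothelial and 1.89 under the stromal scaling. A typical gene is thus past the 2-fold line, so a count of higher dTF-cKO genes under these scalings is not read as an excess. Shares over all genes were not computed for them. The comparisons share libraries in pairs, so their values are not independent of each other. In bulk RNA, fewer cells of a type and less RNA per cell cannot be told apart.

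**Figure D1:**
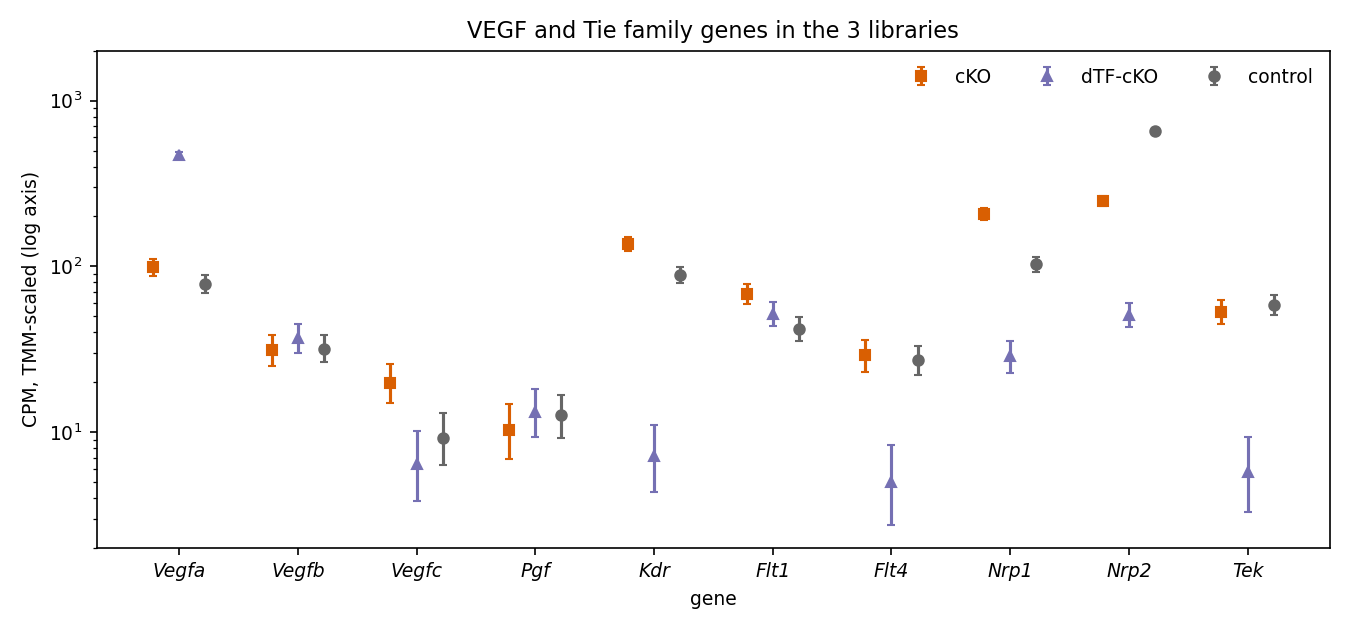
Level of each VEGF and Tie gene in CPM on a log axis, with exact 95% counting intervals, for the cKO, dTF-cKO and control libraries (1 library each). Vegfa reaches 467 CPM in the dTF-cKO library, while Kdr, Flt4, Tek and the ligand Vegfc stand at 7.15 CPM or less there.

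Among the ligands, Vegfa was the gene set apart in the dTF-cKO library. Vegfa, the main driver of vessel sprouting, had 280 counts in the cKO, 1306 in the dTF-cKO and 280 in the control, or 99.0, 467 and 78.3 CPM in that order. It was 5.96-fold higher in the dTF-cKO than in control mesenchyme (5.23 to 6.80) and 4.71-fold higher than in the cKO (4.14 to 5.38). In the cKO against the control the ratio was 1.26 (1.07 to 1.5). The dTF-cKO library was therefore high and the other libraries lay close together. Vegfa lies on the minus strand of mm10 at chr17:46016993-46032369, and the other ligand genes at chr19:6982473-6987651 for Vegfb, chr8:54077606-54187096 for Vegfc and chr12:85166635-85177790 for Pgf (GENCODE vM21).

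The other ligands differed less or were too sparse for a firm order. Vegfb, a ligand of Flt1, had 31.1 CPM in the cKO, 36.8 CPM in the dTF-cKO and 31.9 CPM in the control. Its ratio to the control was 0.976 in the cKO (0.731 to 1.30) and 1.15 in the dTF-cKO (0.875 to 1.52). Pgf, the placental growth factor, had 29 counts in the cKO, 37 in the dTF-cKO and 45 in the control. Its intervals of 0.493 to 1.33 for the cKO and 0.661 to 1.66 for the dTF-cKO include 1. With TMM factors, neither gene differed from the control by more than its counting interval. With the endothelial median set to 0, Vegfb and Pgf were past the line for higher in the dTF-cKO against the control, at 2.04 and 1.90 on the log2 scale. The median of all genes measured was 1.89 there, so both lay close to the typical gene. Vegfc, the ligand that guides lymphatic growth, had 56 counts in the cKO, 18 in the dTF-cKO and 33 in the control. The cKO level exceeded the control 2.15-fold (1.37 to 3.41), a call that held under 4 of 7 scalings and not under totals without the 20 most abundant genes (0.99 on the log2 scale), the endothelial scaling (0.50) or the stromal scaling (0.85), nor with a prior count of 10 (0.89). In the dTF-cKO it was 3.08-fold lower than in the cKO (1.78 to 5.57), and its ratio to the control was 0.697 (0.369 to 1.27). When the median of the endothelial genes was set to 0, the difference between the dTF-cKO and the cKO was 0.39 in place of -1.53 on the log2 scale.

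Figf, the older symbol of Vegfd and a second ligand of Flt4, is not among the 10 genes and completes the ligand family. It had 87 counts in the cKO, 52 in the dTF-cKO and 21 in the control. Its level exceeded that of the control in each library with Cre, 5.24-fold in the cKO (3.22 to 8.89) and 3.16-fold in the dTF-cKO (1.87 to 5.53). Shares within a library need no scaling between libraries. Vegfa held 51.9% of the summed counts of the 5 ligand genes in the cKO (47.5% to 56.1%), 86.1% in the dTF-cKO (84.3% to 87.8%) and 56.8% in the control (52.3% to 61.2%). Vegfb held 16.3% in the cKO, 6.79% in the dTF-cKO and 23.1% in the control.

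Most genes on a list of those known to be induced by low oxygen, among which Vegfa is a textbook member, differed in the same direction. Of 25 measured genes on this hypoxia and glycolysis list, 19 were higher in the dTF-cKO than in control mesenchyme and 0 lower. Over all genes measured, 19.5% were higher and 20.9% lower. The list had a median log2 difference of 1.67. With totals that left out the 20 most abundant genes, 15 were higher and 2 lower, where the median of all genes measured was -0.29. Vldlr and P4ha2 went the other way, under 2-fold with TMM factors. They stood at 34.3 and 132 CPM in the dTF-cKO and at 54.8 and 231 CPM in the control. The summed level of the 26 listed genes was 5652 CPM in the cKO, 17274 CPM in the dTF-cKO and 4092 CPM in the control, with none at 0. Slc2a1, the glucose transporter GLUT1, had 887 counts in the cKO, 6660 in the dTF-cKO and 285 in the control, which was 29.8-fold higher in the dTF-cKO than in control mesenchyme (26.5 to 33.7). Ndrg1, a stress-induced gene, was 20.1-fold higher (18.0 to 22.5), and Adm, a vessel-active peptide listed with the sprouting genes, 22.1-fold (13.8 to 37.9). In the cKO against the control, 7 of the 25 were higher and 2 lower, beside 9.66% and 6.78% over all genes measured. The list median there was 0.56, and under the endothelial scaling 3 were higher and 3 lower. Of 16 epidermal genes, 15 were higher in the cKO than in control mesenchyme and 16 in the dTF-cKO. In the dTF-cKO against the cKO, 5 epidermal genes were higher and 4 lower, beside 14.5% and 20.5% over all genes measured. Chondrocytes also make Vegfa, and 12 chondrocyte genes summed to 3555 CPM in the cKO, 571 CPM in the dTF-cKO and 2589 CPM in the control. The part of the hypoxia, epidermal and chondrocyte genes in the Vegfa result was not tested.

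The receptors split in the dTF-cKO library, with Kdr and Flt4 lower and Flt1 near its control level under TMM scaling. Kdr, the main signalling receptor for Vegfa, had 384 counts in the cKO, 20 in the dTF-cKO and 316 in the control, or 136, 7.15 and 88.4 CPM. It was 12.4-fold lower in the dTF-cKO than in control mesenchyme (7.87 to 20.5) and 19.0-fold lower than in the cKO (12.1 to 31.5). In the cKO its ratio to the control was 1.54 (1.32 to 1.79). Flt1, the receptor that limits Vegfa, had 193 counts in the cKO, 144 in the dTF-cKO and 150 in the control. Its ratio to the control was 1.63 in the cKO (1.31 to 2.03) and 1.23 in the dTF-cKO (0.969 to 1.55), and the dTF-cKO to cKO ratio was 0.754 (0.603 to 0.940). Flt4, the receptor of lymphatic endothelium, had 82 counts in the cKO, 14 in the dTF-cKO and 97 in the control. It was 5.42-fold lower in the dTF-cKO than in control mesenchyme (3.08 to 10.3), and in the cKO the ratio was 1.07 (0.787 to 1.45). The genes lie at chr5:75932827-75978458 for Kdr, chr5:147561604-147726011 for Flt1 and chr11:49609263-49652739 for Flt4.

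The make-up of the receptor family within each library showed the same split without any scaling. Kdr held 58.3% of the summed counts of the 3 receptor genes in the cKO (54.4% to 62.1%), 11.2% in the dTF-cKO (7.0% to 16.8%) and 56.1% in the control (51.9% to 60.3%). Flt1 held 29.3% in the cKO (25.8% to 32.9%), 80.9% in the dTF-cKO (74.3% to 86.4%) and 26.6% in the control (23.0% to 30.5%). Per kilobase of exon, Kdr stood at 15.0 CPM in the cKO, 0.791 CPM in the dTF-cKO and 9.79 CPM in the control. Flt1 stood at 5.06 CPM per kilobase in the cKO, 3.81 in the dTF-cKO and 3.11 in the control. The order of the genes was thus Kdr above Flt1 in the cKO and control libraries and Flt1 above Kdr in the dTF-cKO, with intervals that did not overlap in any library. Gene-level counts do not separate the membrane and soluble forms of Flt1.

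**Figure D2:**
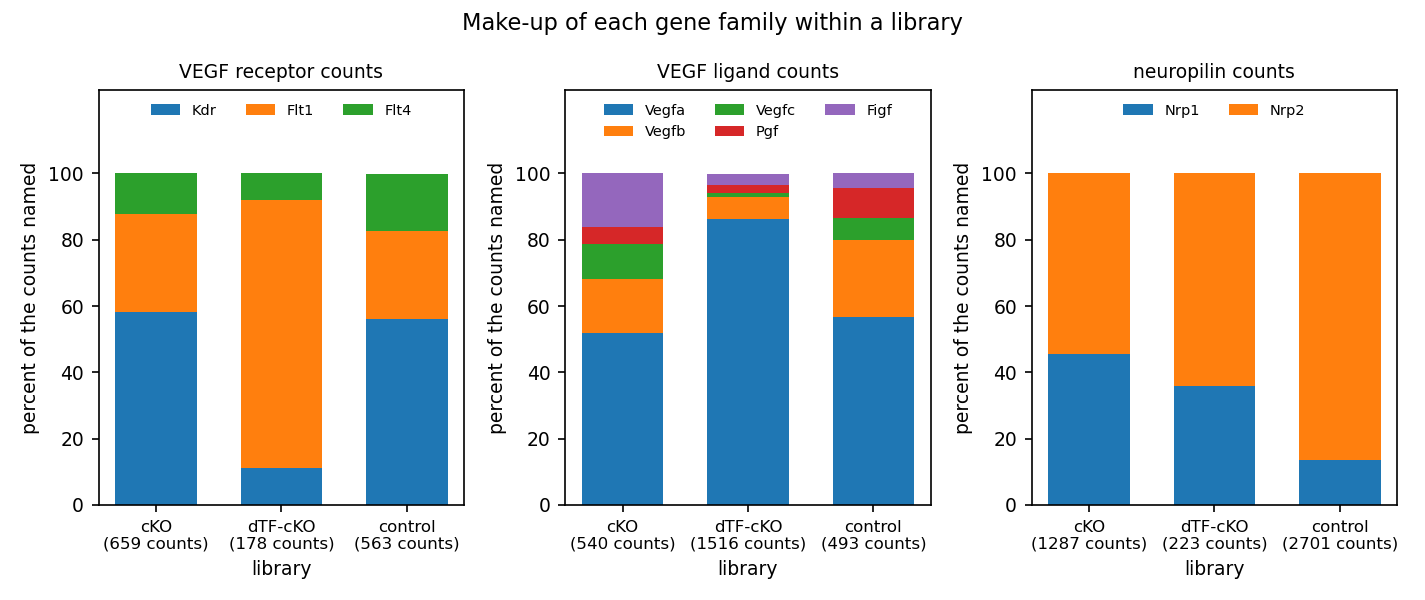
Percent of the summed counts of the VEGF receptor genes, the VEGF ligand genes (with Figf) and the neuropilin genes held by each gene, in the cKO, dTF-cKO and control libraries, with the summed count in brackets. Flt1 fills 80.9% of receptor counts and Vegfa 86.1% of ligand counts in the dTF-cKO library.

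Kdr and Flt1, both on chromosome 5, are the receptors that parted, and the bases upstream of their starts are shown so that the pair can be compared. The windows come from RefSeq on GRCm38.p6, minus strand, printed 5′ to 3′ and ending at the transcript start, without bases inside the GENCODE gene. Kdr is at chr5:75978459-75978705 and Flt1 at chr5:147726012-147726261. Capitals mark the core GGAA, or TTCC on the other strand, of ETS factors, which are known regulators of endothelial genes.
Kdr: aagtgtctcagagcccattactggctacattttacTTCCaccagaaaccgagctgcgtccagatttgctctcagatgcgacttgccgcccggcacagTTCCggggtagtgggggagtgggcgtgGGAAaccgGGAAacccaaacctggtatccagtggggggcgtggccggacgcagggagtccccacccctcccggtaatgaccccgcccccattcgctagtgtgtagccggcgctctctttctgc
Flt1: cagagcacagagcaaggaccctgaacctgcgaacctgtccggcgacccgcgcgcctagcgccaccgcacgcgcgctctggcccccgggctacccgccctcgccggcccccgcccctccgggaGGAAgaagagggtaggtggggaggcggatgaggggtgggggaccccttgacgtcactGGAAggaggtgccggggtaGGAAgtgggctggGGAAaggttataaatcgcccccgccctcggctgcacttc
Each window held 4 matches, with no overlap between them. GGAA in either direction occurs in 93.4% of the 32851 windows of 250 bases, with a median of 3.0 matches, so the matches do not set these genes apart.

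Both neuropilins were lower in the dTF-cKO library than in control mesenchyme, except Nrp1 under the endothelial and stromal scalings, and in the cKO Nrp2 was lower and Nrp1 stood at the edge of a call for higher. Nrp2, a co-receptor of lymphatic vessels, neurons and mesenchyme, had 702 counts in the cKO, 143 in the dTF-cKO and 2332 in the control. It was 2.63-fold lower in the cKO than in control mesenchyme (2.41 to 2.86) and 12.8-fold lower in the dTF-cKO (10.8 to 15.2). Set against the cKO, the dTF-cKO level was 4.86-fold lower (4.05 to 5.86). That last call was lost under the endothelial and stromal scalings, where the log2 difference was -0.34 and -0.38 in place of -2.27. Per 1000 counts of the endothelial list, Nrp2 had 134 in the cKO (123 to 145), 111 in the dTF-cKO (92.3 to 131) and 486 in the control (463 to 511). The control was highest on each of these measures, and the gap between the libraries with Cre depended on the scaling. Nrp2 lies at chr1:62703285-62818695 and Nrp1 at chr8:128358604-128503363.

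Nrp1, the co-receptor of Kdr on arterial endothelium that also binds Sema3a, had 585 counts in the cKO, 80 in the dTF-cKO and 369 in the control. Its ratio to the control in the cKO was 2.0 (1.76 to 2.29), and its log2 difference, damped by the prior count of 2, was just under the line for a call. In the dTF-cKO it was 3.61-fold lower than in control mesenchyme (2.83 to 4.66) and 7.24-fold lower than in the cKO (5.72 to 9.26). Under the endothelial and the stromal scaling, the difference from the control was 0.01 in place of -1.83 on the log2 scale. Against the cKO it was -0.91 under the endothelial and -0.95 under the stromal scaling, no longer a call. Nrp2 held 54.5% of the summed neuropilin counts in the cKO (51.8% to 57.3%), 64.1% in the dTF-cKO (57.5% to 70.4%) and 86.3% in the control (85.0% to 87.6%). Against the summed counts of 20 dermis and mesenchyme genes, Nrp2 had 16.8 counts per 1000 in the cKO (15.6 to 18.1), 8.10 in the dTF-cKO (6.83 to 9.55) and 37.0 in the control (35.5 to 38.5).

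The class 3 semaphorins and the plexins went both ways, and not all of them need a neuropilin. Of 12 such genes measured, 2 were higher and 1 lower in the cKO than in control mesenchyme, beside 9.66% and 6.78% over all genes measured. Under the endothelial scaling, 1 was higher and 3 lower, where the median of all genes measured was -0.49. In the dTF-cKO 2 were higher and 6 lower, beside 19.5% and 20.9% over all genes measured, so the 2 higher are near the background. Under the endothelial and stromal scalings, 5 were higher and 1 lower, where the median of all genes measured was 1.89. Sema3e, which signals through Plxnd1, had 24 counts in the cKO, 375 in the dTF-cKO and 12 in the control. It was 39.9-fold higher in the dTF-cKO than in control mesenchyme (22.6 to 77.9). Sema3f, an Nrp2 ligand that repels axons and vessels and was chosen after its values were seen, exceeded the control 2.99-fold in the cKO (2.54 to 3.54) and 3.60-fold in the dTF-cKO (3.07 to 4.24). Plxnd1, a plexin of endothelium, had 753 counts in the cKO, 112 in the dTF-cKO and 997 in the control, and was 6.97-fold lower in the dTF-cKO than in control mesenchyme (5.73 to 8.55). Sema3b, a secreted guidance cue, was 4.95-fold lower in the cKO (3.67 to 6.78) and 41.6-fold lower in the dTF-cKO (18.9 to 114).

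With TMM factors, Tek was lower in the dTF-cKO and close to the control in the cKO. Tek had 150 counts in the cKO, 16 in the dTF-cKO and 210 in the control. It was 10.3-fold lower in the dTF-cKO than in control mesenchyme (6.18 to 18.3) and 9.28-fold lower than in the cKO (5.53 to 16.7). In the cKO its ratio to the control was 0.903 (0.728 to 1.12). The gene lies at chr4:94739289-94874976. Tie1, the partner receptor of Tek, had 259 counts in the cKO, 99 in the dTF-cKO and 253 in the control. Its ratio to the control was 1.29 in the cKO (1.08 to 1.55) and 0.5 in the dTF-cKO (0.392 to 0.633). Of the summed counts of Tek and Tie1, Tek held 36.7% in the cKO (32.0% to 41.6%), 13.9% in the dTF-cKO (8.17% to 21.6%) and 45.4% in the control (40.8% to 50.0%).

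The ligands of Tek were lower in the dTF-cKO as well. Angpt1, the ligand that activates Tek and is made by mesenchymal and mural cells, had 44 counts in the cKO, 3 in the dTF-cKO and 122 in the control. It was 2.19-fold lower in the cKO than in control mesenchyme (1.54 to 3.17), and its ratio in the dTF-cKO was 0.0314 (0.00639 to 0.0940). Angpt2, which endothelial cells release and which can oppose Angpt1, had 226 counts in the cKO, 10 in the dTF-cKO and 145 in the control. Its ratio to the control was 1.97 in the cKO (1.59 to 2.45), and it was 11.4-fold lower in the dTF-cKO (6.0 to 24.2). Angpt1 held 16.3% of the summed counts of the pair in the cKO (12.1% to 21.3%), against 45.7% in the control (39.6% to 51.9%). In the dTF-cKO there were only 13 counts for the pair, and its share of 23.1% (5.04% to 53.8%) cannot be placed against either. Of 12 measured genes of the wider VEGF and Tie pathway, 1 was higher and 1 lower in the cKO than in control mesenchyme. Over all genes measured, 9.66% were higher and 6.78% lower, so these counts are near the background. In the dTF-cKO 2 were higher and 5 lower, beside 19.5% and 20.9% over all genes measured. Under the endothelial and stromal scalings, 6 were higher and 2 lower, where the median of all genes measured was 1.89. With TMM factors, those lower in the dTF-cKO were Angpt1, Angpt2, the Tek phosphatase gene Ptprb at 6.56-fold (3.89 to 11.8), Svep1 at 3.21-fold (2.63 to 3.95) and the endothelial nitric oxide synthase gene Nos3 at 8.46-fold (3.41 to 27.1). The higher ones were Figf and Shb, a Kdr adaptor, at 2.25-fold (1.74 to 2.94). Svep1, Ptprb, Nos3 and Shb were named after their values were seen.

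Nrp2 and Tek were the genes of the 10 whose upstream window held a TCF/LEF core, the DNA element through which beta-catenin acts, and these windows are shown for that reason. Both lie on the plus strand of GRCm38.p6, Nrp2 at chr1:62703067-62703284 and Tek at chr4:94739039-94739288. Capitals mark the match to CTTTGA or CTTTGT on either strand.
Nrp2: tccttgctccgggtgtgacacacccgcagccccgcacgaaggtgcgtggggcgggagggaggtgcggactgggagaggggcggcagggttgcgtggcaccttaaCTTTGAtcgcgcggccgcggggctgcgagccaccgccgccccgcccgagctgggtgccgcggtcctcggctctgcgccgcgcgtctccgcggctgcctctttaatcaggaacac
Tek: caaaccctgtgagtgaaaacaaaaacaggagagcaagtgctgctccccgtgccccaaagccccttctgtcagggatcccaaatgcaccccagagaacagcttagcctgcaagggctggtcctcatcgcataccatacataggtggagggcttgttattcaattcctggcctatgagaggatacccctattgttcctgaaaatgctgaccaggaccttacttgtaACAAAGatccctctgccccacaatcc
A TCF/LEF core stood in 2 of 10 windows of these genes, against 27.6% of the 32851 windows. ACGTG, the core of the hypoxia response element, stood in 0 of 10, against 16.6% of all windows. No match says only that the letters are missing from these 250 bases.

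**Figure D3:**
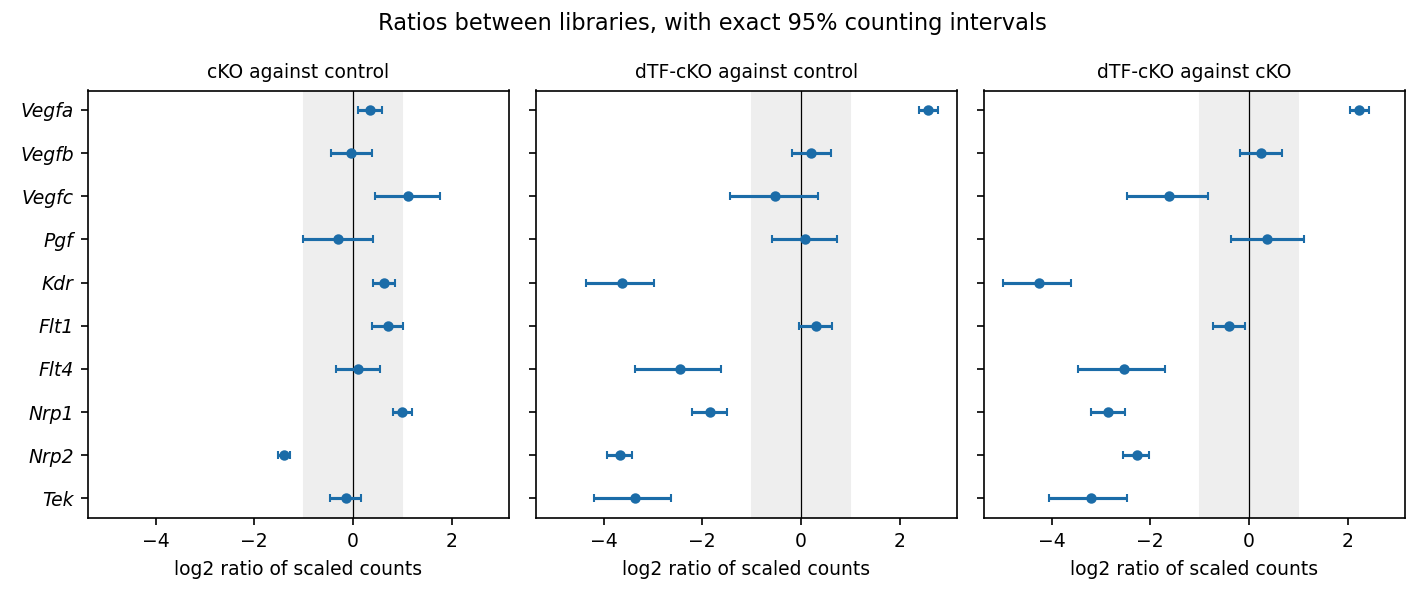
Log2 ratio of scaled counts for each VEGF and Tie gene in the 3 comparisons, first-named over second-named library, with exact 95% counting intervals; the grey band spans less than 2-fold. With TMM factors, in the dTF-cKO comparisons Kdr, Flt4, Nrp1, Nrp2 and Tek lie to the left of the band and Vegfa to the right.

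Most endothelial genes outside the family were lower in the dTF-cKO library too, so the receptors were set against them. Of 23 measured genes on an endothelial list that holds none of the 10, the dTF-cKO was lower than the control for 15 and higher for 0. Over all genes measured, 20.9% were lower and 19.5% higher. The median of the list was -1.83. In the cKO against the control, 2 were higher and 0 lower, with a median of 0.55, beside 9.66% higher and 6.78% lower over all genes measured. The 24 listed genes summed to 1856 CPM in the cKO, 462 CPM in the dTF-cKO and 1341 CPM in the control, with none at 0. Pecam1, the junction protein CD31, had 497 counts in the cKO, 142 in the dTF-cKO and 369 in the control. Cdh5, the endothelial cadherin, had 786 counts in the cKO, 100 in the dTF-cKO and 883 in the control. Emcn, a sialomucin of capillaries and veins, had 132 counts in the cKO, 39 in the dTF-cKO and 101 in the control. Ets1, Ecscr and Sox17 went the other way, each under 2-fold. They stood at 71.1, 26.1 and 10.7 CPM in the dTF-cKO and at 54.5, 16.2 and 7.55 CPM in the control. Ets1 was the highest gene of the list in the dTF-cKO, with 199 of its 1294 counts.

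By point value, Kdr lay just below this list and Flt1 near its top. In the dTF-cKO against the control, all 23 endothelial genes had a higher log2 difference than the -3.51 of Kdr, 21 had a higher one than the -3.22 of Tek, and 18 than the -2.3 of Flt4. The lowest endothelial value was -3.38. Plvap, a gene of that list, had 21 counts in the dTF-cKO and 301 in the control, close to the 20 and 316 of Kdr. Counting error therefore does not separate Kdr from the lowest endothelial genes. Flt1, at 0.29, had 3 endothelial genes above it and 20 below. Counted per 1000 counts of the endothelial list, Kdr had 73.2 in the cKO (65.8 to 81.2), a rate between 9.41 and 24.0 in the dTF-cKO, from 20 counts against 1294, and 65.9 in the control (58.6 to 73.9). Tek had 28.6 in the cKO (24.1 to 33.6), 12.4 in the dTF-cKO (7.05 to 20.2) and 43.8 in the control (38.0 to 50.3). Flt4 had 15.6 in the cKO (12.4 to 19.4), 10.8 in the dTF-cKO (5.90 to 18.2) and 20.2 in the control (16.4 to 24.7). Flt1 had 36.8 in the cKO (31.7 to 42.5), 111 in the dTF-cKO (93.0 to 132) and 31.3 in the control (26.4 to 36.8). Relative to endothelial genes as a whole, Kdr and Tek were thus low and Flt1 high in the dTF-cKO, while the interval of Flt4 overlapped that of the control. On this measure Tek was also below the control in the cKO, with intervals that did not overlap.

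**Figure D4:**
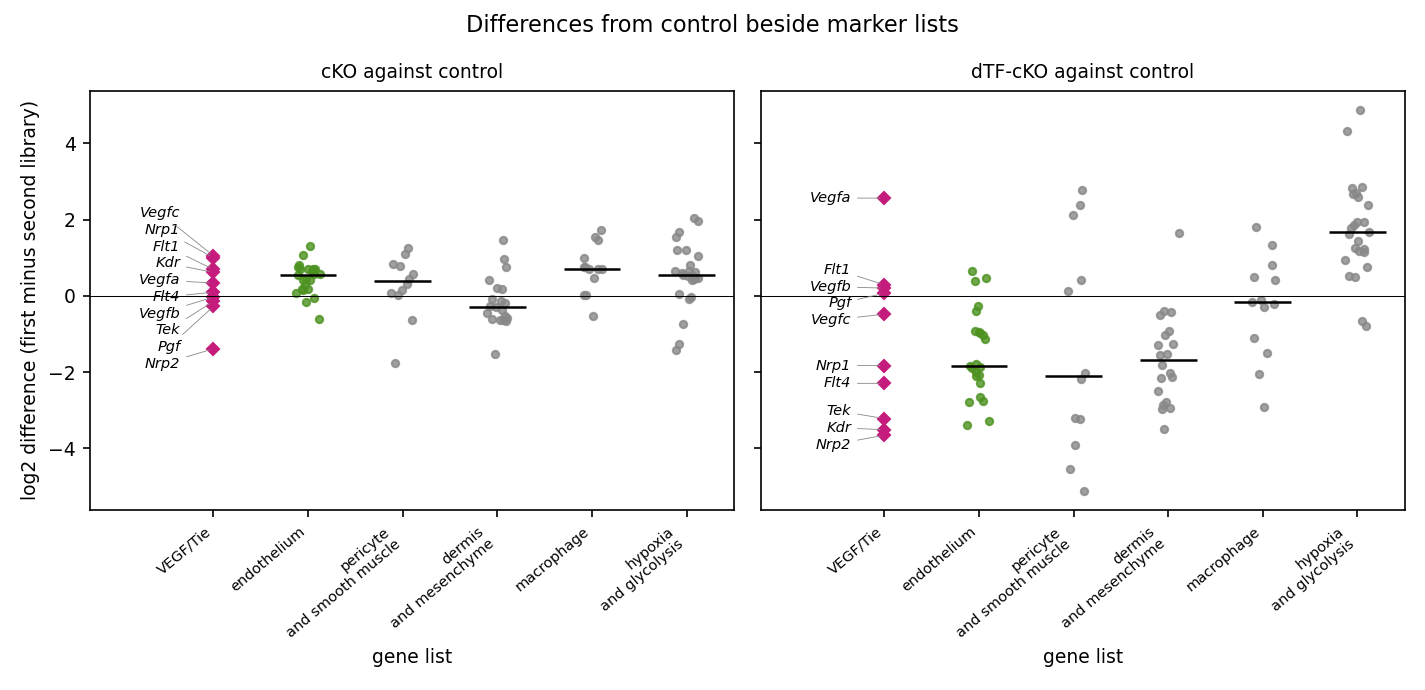
Log2 difference of each VEGF and Tie gene (diamonds, named) and of the measured genes of 5 marker lists (points, with a bar at the median), for the cKO and the dTF-cKO against the control. In the dTF-cKO panel Kdr, at -3.51, lies just below the lowest endothelial gene, at -3.38, and the endothelial median is -1.83.

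Other cells that carry these receptors also differed. The list of 12 pericyte and smooth muscle genes had a median log2 difference from the control of 0.38 in cKO RNA and of -2.09 in dTF-cKO RNA. In the dTF-cKO 7 were lower and 3 higher, beside 20.9% and 19.5% over all genes measured. The summed level of the pericyte list was 1264 CPM in the cKO, 1607 CPM in the dTF-cKO and 1096 CPM in the control, with none at 0. Acta2 with 2482 and Tagln with 1002 counts made up most of the 4499 counts of this list in the dTF-cKO. Cspg4 had 13 counts there and 656 in the control, so the sum does not stand for the list as a whole. Macrophages can carry Flt1 and Nrp1, and 13 macrophage genes summed to 635 CPM in the cKO, 337 CPM in the dTF-cKO and 370.4 CPM in the control. Of these, 4 were higher and 0 lower in the cKO, beside 9.66% and 6.78% over all genes measured. In the dTF-cKO, 2 macrophage genes were higher and 4 lower, beside 19.5% and 20.9%. Under the endothelial and stromal scalings the macrophage counts for the dTF-cKO became 9 higher and 1 lower, and those of the pericyte list 5 higher and 5 lower. The median of all genes measured was 1.89 under those scalings. Neurons and glia, which carry neuropilins, had a summed level over 12 genes of 124 CPM in the cKO, 81.5 CPM in the dTF-cKO and 265 CPM in the control, and Elavl4, a neuronal RNA-binding protein, was at 0 in the dTF-cKO. Lymphatic markers were sparse, with 522 counts in the cKO, 94 in the dTF-cKO and 457 in the control over 7 genes, and Prox1, the lymphatic master regulator, had 15, 7 and 12 counts in that order. The list of 20 dermis and mesenchyme genes summed to 14760.0 CPM in the cKO, 6305 CPM in the dTF-cKO and 17646 CPM in the control. The part of these cells in the receptor and neuropilin results was not tested.

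Genes of vessel sprouting, many of which respond to Vegfa, were called in both directions. Of 15 measured, 2 were higher and 1 lower in the cKO than in control mesenchyme, beside 9.66% and 6.78% over all genes measured. In the dTF-cKO 3 were higher and 7 lower, beside 19.5% and 20.9%, so the 3 higher are near the background. Under the endothelial and stromal scalings, 8 were higher and 4 lower, where the median of all genes measured was 1.89. The higher ones included Adm, described above, and Notch1, with 508 counts in the cKO, 1400 in the dTF-cKO and 323 in the control. Notch1 was named after its values were seen. Apln, a peptide of tip cells, had 113 counts in the cKO, 10 in the dTF-cKO and 90 in the control, and was 7.05-fold lower in the dTF-cKO than in control mesenchyme (3.66 to 15.2). Aplnr, its receptor, had 336 counts in the cKO, 12 in the dTF-cKO and 322 in the control, and was 21.0-fold lower (11.9 to 41.1). Chosen after their values were seen, Dll4, the Notch ligand of tip cells, had 58 counts in the cKO, 62 in the dTF-cKO and 64 in the control, and Esm1, another tip cell gene, had 62, 21 and 29 in that order.

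The order of the 10 genes by level per kilobase of exon differed between libraries. In the cKO, Vegfa at 23.1, Nrp1 at 21.1, Nrp2 at 21.0 and Vegfb at 19.4 CPM per kilobase led, each overlapping the next. In the dTF-cKO, Vegfa led at 109 CPM per kilobase, Vegfb followed at 22.9, and no other gene was above the 4.55 of Pgf. At the low end of that library, Tek at 1.21, Kdr at 0.791 and Flt4 at 0.608 CPM per kilobase had overlapping intervals. In the control, Nrp2 led at 55.1 CPM per kilobase, followed by Vegfb at 19.9 and Vegfa at 18.3, whose intervals overlap.

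How the libraries are scaled matters for the size of the dTF-cKO values. Setting the median of the 23 endothelial genes to 0 moves the median of all genes by 1.83 on the log2 scale in the dTF-cKO against the control, by 1.92 against the cKO, and by -0.55 in the cKO against the control. The scalings compared were TMM over 3 libraries, TMM over the 2 compared, library totals, DESeq2 size factors, totals without the 20 most abundant genes, and the endothelial and stromal scalings. Over these 7, the dTF-cKO minus control difference ran from 2.21 to 4.40 for Vegfa, from -3.85 to -1.68 for Kdr, from -4.01 to -1.82 for Nrp2 and from -3.56 to -1.39 for Tek. These 4 genes were at least 2-fold different in the same direction under all 7. Flt4 ran from -2.63 to -0.46 and was called lower under 5 of 7. Flt1 ran from -0.07 to 2.12, and under the endothelial and the stromal scaling it was called higher. The median of all genes measured was 1.89 under those scalings, close to the value of Flt1.

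**Figure D5:**
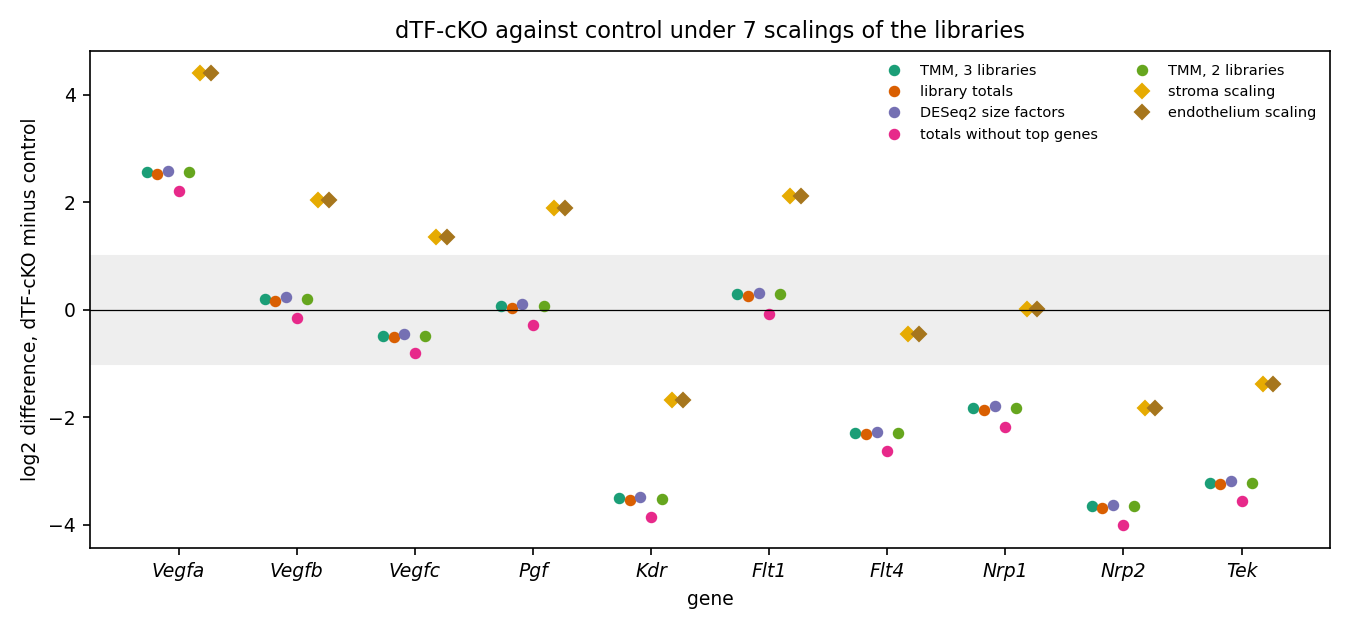
Log2 difference, dTF-cKO minus control, of each VEGF and Tie gene under 7 scalings of the libraries; diamonds mark the scalings to stromal or endothelial genes and the grey band spans less than 2-fold. Vegfa stays above the band, and Kdr, Nrp2 and Tek below it, under every scaling drawn.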

How the data were processed

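PolyA RNA of primary cells was extracted with a Qiagen RNeasy kit and sequenced as Ion Total RNA-Seq libraries, per the labels' protocols. The deposited values are raw read counts per gene symbol with no normalisation, per the file headers. Per the submitters' processing notes, the build was mm10. For the aligner, counter, annotation and use of strand, the record is: not given in the sources used here. The 27 symbols turned into dates stayed in the totals and were not named.

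There was 1 library each for the cKO, the dTF-cKO and the control, so 3 comparisons were made without a test. TMM factors (edgeR 4.0.16, R 4.3.3) were 1.06 for the cKO, 0.963 for the dTF-cKO and 0.984 for the control. Log2 CPM used a prior count of 2. Genes were measured at a mean of at least 5 CPM. Ratios of scaled counts carry an exact conditional (Clopper-Pearson) 95% interval, levels an exact Poisson interval and shares an exact binomial interval. All intervals cover counting error only and treat reads as independent. Without molecular identifiers, PCR copies of a molecule count separately, so the intervals may be too narrow even for counting error. The ratio and its interval were tried on simulated data drawn with Poisson counting error only. That trial cannot speak to PCR copies or to spread between embryos. Exon lengths and positions came from GENCODE vM21 on GRCm38. Of the 10 genes, 10 matched a RefSeq promoter window. No other annotated gene of the tables with counts shared exon bases with any of the 10.

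The genes and lists were chosen with earlier results of these data known, and the shares, counts per list count and the pairwise TMM alternative were added after the values were seen. Named genes were the 10, Ctnnb1, Angpt1, Angpt2, Figf, Tie1, Pecam1, Cdh5 and Emcn, up to 4 genes per list with the largest log2 difference, and for Vegfa and Kdr the 3 genes nearest in pattern. Prox1, Elavl4, Ivl, Dsg3, Dll4, Esm1, Notch1, Acta2, Tagln, Sema3f, Svep1, Ptprb, Nos3, Shb and the sex-linked Xist fall outside this rule and were named after their values were seen. The same holds for Ets1, Ecscr, Sox17, Vldlr and P4ha2. Lists are described by counts and medians. Alternatives were library totals, DESeq2 1.42.0 size factors, totals leaving out the 20 genes most abundant in each library, scaling to endothelial or stromal genes, TMM on the 2 libraries compared, other prior counts, floors and folds. A planned look at ligand protein motifs was not run.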

Additional observations from a re-analysis of the deposited data

How the results depend on the processing

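The counts of VEGF and Tie genes called rest on how libraries are scaled. In the dTF-cKO against the control the main counts of 1 higher and 5 lower became 5 higher and 3 lower under both the endothelium and the stroma scaling. In the dTF-cKO against the cKO, 1 higher and 6 lower became 4 higher and 2 lower under both. The median of all genes measured was 1.89 against the control under both scalings. Against the cKO it was 1.93 under the endothelium and 1.89 under the stroma scaling. In the cKO against the control, the single higher gene became 0 under the endothelium and stroma scalings, under totals without the 20 most abundant genes, with a prior count of 10, with a floor of 20 CPM and at 3-fold. It became 2 with library totals and with a prior count of 0.5, and 4 at 1.5-fold. The single lower gene there became 0 at 3-fold. Under the endothelium and stroma scalings, the difference of Nrp1 in the dTF-cKO against the control was 0.01 in each case, and that of Vegfc in the dTF-cKO against the cKO was 0.39 and 0.35. All other alternatives kept each count within 1.5 times its main value, and no other called gene changed sign. Library totals, DESeq2 size factors, pairwise TMM and both prior counts left all 30 gene differences within their counting intervals. The endothelium and stroma scalings set a list median to 0 by construction and are applied to each comparison separately, so their values do not add up across comparisons. No replicate could be left out with 1 library per genotype. No paired analysis was possible because each genotype has 1 library. The smallest counts limit precision most: Angpt1 with 3 counts and Flt4 with 14 in the dTF-cKO have intervals spanning several-fold.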

Other observations

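A stress response list, genes induced through Atf4 and related factors, was not part of the comparisons above. Of 16 genes measured, 7 were higher and 1 lower in the dTF-cKO than in control mesenchyme, with a median log2 difference of 0.66, beside 19.5% higher and 20.9% lower over all genes measured. Under the endothelial and stromal scalings 15 were higher and 0 lower, with a median of 2.49, beside 1.89 over all genes measured. With TMM factors, 2 were higher and 3 lower in the cKO, with a median of -0.03, beside 9.66% and 6.78% over all genes measured. Atf3, a stress-induced transcription factor, had 11 counts in the cKO, 251 in the dTF-cKO and 14 in the control. Ddit3, which encodes CHOP, had 36 counts in the cKO, 268 in the dTF-cKO and 44 in the control, and Asns, asparagine synthetase, had 66, 518 and 143 in that order. Chac1, a glutathione-degrading enzyme, was the lower member, with 3 counts in the cKO, 6 in the dTF-cKO and 67 in the control.

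Among 7961 genes at 20 CPM or more on average, the 3 whose pair of differences from the control lay nearest to that of Vegfa over the 3 libraries were Sesn2, Tagap1 and Ppp1r15a, at Euclidean distances of 0.111, 0.155 and 0.171 on the log2 scale. Sesn2, a stress-induced gene that is also on the stress list, had 83 counts in the cKO, 369 in the dTF-cKO and 84 in the control. In all, 67 genes lay within 0.5 of Vegfa. The 3 nearest to Kdr were Nrros, Wfikkn2 and Clec14a, at distances of 0.071, 0.123 and 0.219, and 13 genes lay within 0.5. Clec14a, an endothelial membrane protein, had 181 counts in the cKO, 10 in the dTF-cKO and 146 in the control. With 3 libraries such nearness is a description of these libraries.

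Lyve1, a hyaluronan receptor of lymphatic vessels and of some macrophages, had 169 counts in the cKO, 18 in the dTF-cKO and 31 in the control. Its cKO level exceeded the control 6.89-fold (4.68 to 10.5), and Mmrn1, another gene of lymphatic endothelium, was 2.53-fold higher (1.63 to 4.0). Of the 6 lymphatic genes measured, 3 were higher and 0 lower in the cKO, beside 9.66% higher and 6.78% lower over all genes measured. Itga9 and Foxc2 went the other way by less than 2-fold, at 49.9 and 14.9 CPM in the cKO and 65.5 and 21.5 CPM in the control. The count became 1 higher and 1 lower under the endothelial scaling, and 2 higher and 0 lower under the stromal scaling.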
